A study of Mus musculus with 9 samples.

Results

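The cytosolic sulfotransferases (Sult), the UDP-glucuronosyltransferases (Ugt) and the glutathione transferases (Gst) were examined in the livers of hyperlipidemic mice with and without Mif-2. Members were the protein-coding genes whose symbols place them in the Sult family, in Ugt1, Ugt2 or Ugt3, or in the alpha, kappa, mu, omega, pi and zeta classes of Gst, and that were counted at least once in 3 or more libraries. Of the 27179 genes counted, 48 were members, namely 16 sulfotransferases, 14 glucuronosyltransferases and 18 glutathione transferases, and a further 11 of the 59 family genes were counted in fewer than 3 libraries. Gene expression had been measured by bulk RNA sequencing of frozen, OCT-embedded liver sections. The control group was 5 libraries from female Apoe-/- mice, and the other group was 4 libraries from female Mif-2-/- Apoe-/- mice. The study states 4 mice per group, and whether the 5 Apoe-/- libraries came from 5 different mice is not given. Where livers are named below, libraries are meant. Apoe-/- mice lack apolipoprotein E and develop hyperlipidemia and atherosclerosis, so both groups carried this deletion. Both had received a cholesterol-rich high-fat diet (HFD) for 12 weeks from 8 weeks of age. The Mif-2 deletion was global, so that liver cells were not the only cells without MIF-2, a cytokine encoded by Ddt. The comparison asks how the loss of Mif-2 goes with hepatic gene expression after the HFD.

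These enzymes carry out phase II metabolism, in which a polar group is joined to a drug, a hormone, a bile acid or a reactive lipid so that it can be excreted. Sulfotransferases take sulfate from PAPS, glucuronosyltransferases take glucuronic acid from UDP-glucuronic acid, and glutathione transferases add the tripeptide glutathione to electrophiles. The liver is their main site, many of them lie in clusters of closely related genes, and several are known targets of the nuclear receptors that sense bile acids and foreign compounds.

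The deleted gene followed the labels. Levels are in CPM, counts per 1000000 after TMM normalization, and means are given ± SD, over n = 5 libraries for Apoe-/- and n = 4 for Mif-2-/- Apoe-/-, in this order. Ddt was at 658 ± 283 against 4.18 ± 1.45 CPM (edgeR quasi-likelihood test, adjusted p = 2.23e-05). Total counts ran from 2318148 to 10764182 per library. The labelled tissue was checked against 10 hepatocyte markers, all of which were counted and which together made up between 67505 and 202823 CPM. The libraries differed in make-up within each genotype. The 10 most abundant genes, among them Alb and Ttr, took between 20.5% and 23.7% of the counts in Apoe-/- replicates 1 to 4 and 26.3% in Mif-2-/- Apoe-/- replicate 2, but 14.7% in Apoe-/- replicate 5 and between 12.5% and 17.0% in Mif-2-/- Apoe-/- replicates 1, 3 and 4. Values are therefore given below with and without Apoe-/- replicate 5 and Mif-2-/- Apoe-/- replicate 2 where these decide a result. Summed markers of cholangiocytes, Kupffer cells, endothelial cells, stellate cells, lymphocytes and neutrophils overlapped between the genotypes. Within these lists, the Kupffer cell gene Cd5l was at 470 ± 178 against 205 ± 67.0 CPM (edgeR adjusted p = 0.175, DESeq2 adjusted p = 0.0348). The T cell gene Cd3d was at 5.09 ± 2.81 against 0.364 ± 0.318 CPM, without overlap (edgeR adjusted p = 0.184, DESeq2 adjusted p = 0.0193). Cd3e, another T cell gene, ran the other way, at 0.238 ± 0.190 against 6.94 ± 12.8 CPM, with 26.1 CPM in Mif-2-/- Apoe-/- replicate 2 (edgeR adjusted p = 0.179). Of the 7 lymphocyte markers, 5 had a positive fitted log2 fold change and 2 a negative one. Of the 7 Kupffer cell markers, 2 were positive and 5 negative. The part of these genes in the results below was not tested. In bulk tissue, fewer cells of a type and less RNA per cell cannot be told apart.

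Conjugation enzymes were more often lower than higher in Mif-2-/- Apoe-/- livers, although no single member passed the edgeR test over all genes. Of the 48 members, 47 were tested (Sult1c1 had too few counts) and 31 had a mean of at least 5 CPM over the 9 libraries. Of those 31, 27 had a negative fitted log2 fold change and the median was -1.12 on the log2 scale, against 0.08 for the 10668 genes at that level. The edgeR test called 0 of the 47 members, the lowest adjusted p being 0.136, where it called 0.13% of all 16860 genes tested. At an unadjusted p under 0.05, 14 of the 31 members were lower (45.2%) and 1 was higher (3.23%), while the background at that level was 8.83% of genes lower and 7.79% higher. Over all 47 tested members these counts were 18 and 1 (all genes 6.52% and 8.99%). They are given as a description only, since 7 members, among them Sult2a3, Sult3a1 and Ugt2b37, entered the test through their counts in Apoe-/- livers alone. DESeq2 called 8 of the 38 members to which it gave an adjusted p, all lower (2.52% of all genes lower, 2.75% higher). These were Sult2a1, Sult2a2, Sult2a5, Ugt3a2, Gstm4, Gstm7, Gstk1 and, as a description only, Ugt2b37. Of the 31 members, 4 (Sult2a1, Sult2a2, Sult2a5 and Ugt3a2) had every Mif-2-/- Apoe-/- library below every Apoe-/- library (12.9%, against 3.17% of genes at that level), and 0 had every one above (2.11%). Sult2a1, Sult2a2 and Sult2a5, like Sult1c2 and Ugt2b35, averaged below 5 CPM in Mif-2-/- Apoe-/- livers and reached that level through their Apoe-/- counts. The counts over the 31 members are therefore a description only too. Of the less abundant members, Sult2a6, Sult3a1 and Ugt2b37 were also lower without overlap, which makes 7 in all (2.24% of all genes lower, 2.03% higher), again with Sult3a1 and Ugt2b37 as a description only.

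**Figure D1:**
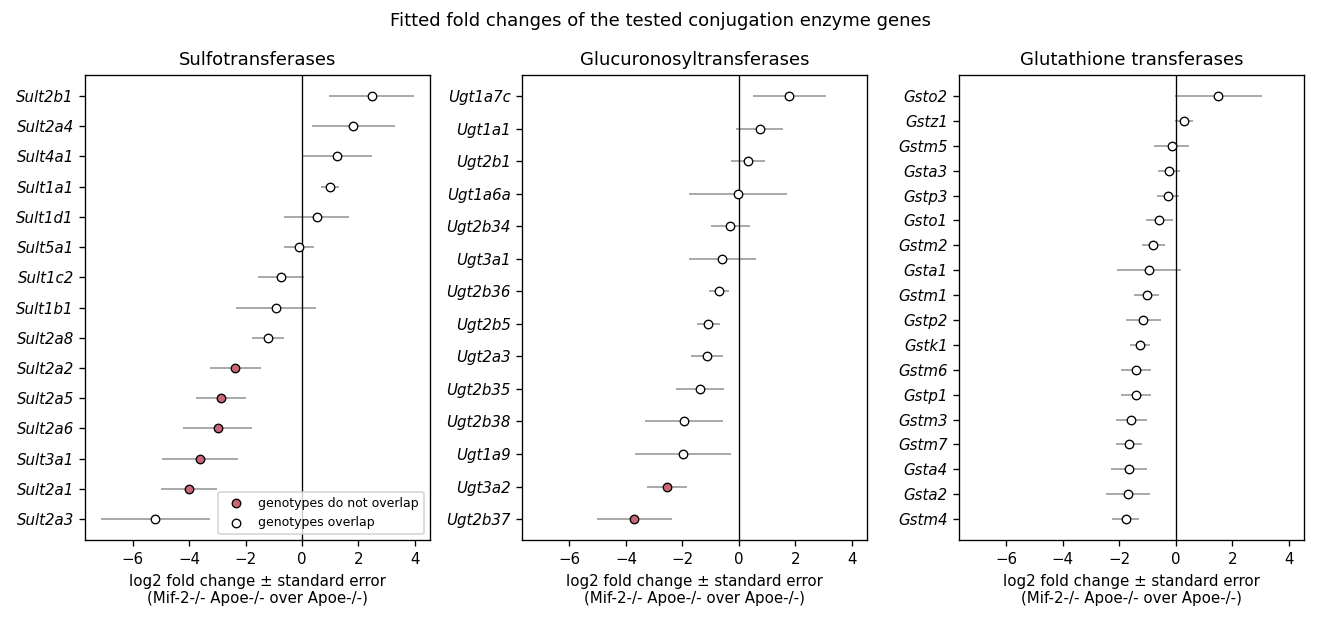
Fitted log2 fold change (x axis, Mif-2-/- Apoe-/- over Apoe-/-, edgeR; bars show the standard error) of the 47 tested members, in 3 panels by class; filled points are the 7 members whose genotypes did not overlap in CPM. The filled points are 4 Sult2a genes, Sult3a1, Ugt3a2 and Ugt2b37, whereas 16 of the 18 glutathione transferases lie below 0 with all genotypes overlapping. The fitted values of Sult2a3, Sult2a6, Sult3a1 and Ugt2b38, at 3 counts or fewer in each Mif-2-/- Apoe-/- library, depend on the prior count.

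Among the sulfotransferases, the Sult2a subfamily held the largest differences. Sult2a enzymes add sulfate to hydroxysteroids and bile acids, and their 7 member genes lie side by side on chromosome 7 (chr7:13623967-14446769, GRCm38). The coding sequence of Sult2a1 was 94.9% identical to that of Sult2a5, and reads from some stretches can fall on either gene. Of all 100-base windows of the transcript, 11.4% also occurred in other genes for Sult2a1, 34.6% for Sult2a2 and 16.6% for Sult2a5, and 0 did so for Sult2a6. The likeness extended to their promoters. The windows from 250 bases before to 50 bases after the start were taken from RefSeq (GRCm38.p6), which gave 6 windows for 5 of the Sult2a genes; Sult2a1 and Sult2a2 had no entry. The 4 stretches that align around GTTAAT, an element known from binding sites of the hepatocyte factor HNF1, are shown because they carry the sequence that these genes have in common. Capitals mark GTTAAT and, further upstream, the palindrome TCATGA, which was added to the search after the sequences had been seen.
Sult2a5, chr7:13623795-13623964, plus strand: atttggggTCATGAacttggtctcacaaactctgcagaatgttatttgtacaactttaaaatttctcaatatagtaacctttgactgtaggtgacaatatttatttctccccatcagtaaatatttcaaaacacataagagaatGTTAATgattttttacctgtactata
Sult2a4, chr7:13989670-13989838, minus strand: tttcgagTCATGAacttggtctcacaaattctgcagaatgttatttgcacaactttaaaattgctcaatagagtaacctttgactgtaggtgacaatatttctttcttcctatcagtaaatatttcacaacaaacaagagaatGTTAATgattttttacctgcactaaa
Sult2a3, chr7:14123074-14123243, minus strand: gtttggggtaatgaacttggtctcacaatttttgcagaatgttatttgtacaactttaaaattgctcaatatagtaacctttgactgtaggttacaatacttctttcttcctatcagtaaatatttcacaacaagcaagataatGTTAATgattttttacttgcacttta
Sult2a6, chr7:14254916-14255085, minus strand: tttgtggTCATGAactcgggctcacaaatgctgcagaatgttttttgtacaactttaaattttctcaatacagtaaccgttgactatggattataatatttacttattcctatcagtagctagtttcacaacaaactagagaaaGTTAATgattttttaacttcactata

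These 4 stretches were between 81.3% and 91.2% identical. GTTAAT began between 28 and 107 bases before the annotated start. Searched on both strands like all elements named here, it was present in 4 of the 6 Sult2a windows, 12 of the 53 windows of all members and 7.10% of the 32851 windows of all genes. TCATGA was present in Sult2a4, Sult2a5 and Sult2a6, in 8 of the 53 windows of all members and in 5.46% of all windows. In those 3 Sult2a genes it began 136 or 137 bases before GTTAAT. Outside Sult2a, TCATGA was in windows of Ugt1a1, Ugt1a9, Ugt2b36, Gsta1 and Gsta2. GTTAAT was in 3 of the 4 Ugt1a windows and in windows of Sult1a1, Sult1d1, Ugt2a3, Ugt3a1 and Gsta3. The windows of Sult2a8 held neither sequence. Of the other elements searched, the antioxidant response element core TGACNNNGC was in 0 of the Sult2a windows, 5.66% of the windows of members and 12.4% of all windows, and the xenobiotic response element core GCGTG in 0, 20.8% and 32.4%. These matches describe the letters only.

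Sult2a1, a hydroxysteroid and bile acid sulfotransferase, had the lowest fitted value of the well counted members. It was at 65.6, 79.1, 30.5, 42.3 and 13.2 CPM in the 5 Apoe-/- livers and at 0.203, 10.8, 1.51 and 0.457 CPM in the 4 Mif-2-/- Apoe-/- livers. The genotypes did not overlap, although Apoe-/- replicate 5 came close to Mif-2-/- Apoe-/- replicate 2, which held 19 counts where the others of its group held 1, 6 and 2. The means were 46.1 ± 26.5 CPM and 3.24 ± 5.06 CPM, a log2 fold change of -3.99 (SE 1.0; edgeR adjusted p = 0.136, DESeq2 adjusted p = 0.00262). Without Mif-2-/- Apoe-/- replicate 2, edgeR gave -6.08 and an adjusted p of 0.0151, and without Apoe-/- replicate 5 it gave -4.25 and an adjusted p of 0.0512.

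The neighbouring Sult2a5 was at 22.2, 18.8, 14.6, 11.9 and 5.03 CPM in Apoe-/- and at 0.407, 3.98, 1.51 and 2.29 CPM in Mif-2-/- Apoe-/- livers (log2 fold change -2.86, SE 0.88; edgeR adjusted p = 0.171, DESeq2 adjusted p = 0.00561). Sult2a2 was at 8.92, 11.1, 7.98, 11.9 and 7.16 CPM against 1.42, 0.568, 1.26 and 3.89 CPM (log2 fold change -2.36, SE 0.89; edgeR adjusted p = 0.234, DESeq2 adjusted p = 0.0164). In both genes all Apoe-/- libraries lay above all others, and for Sult2a2 Apoe-/- replicate 5 stood near the rest of its group. Sult2a6, which shared no 100-base window with another gene, was at 4.39, 3.35, 3.76, 2.22 and 1.94 CPM in Apoe-/- livers and at 0, 0.568, 0.756 and 0.229 CPM in Mif-2-/- Apoe-/- livers. The latter were at or under 3 counts in each library, so that Sult2a6 was at least 3.33-fold higher in Apoe-/- livers (edgeR adjusted p = 0.267).

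The remaining Sult2a genes were mixed. Sult2a8 was at 32.6 ± 9.30 CPM against 14.2 ± 7.56 CPM, and the genotypes overlapped because Apoe-/- replicate 5, at 17.2 CPM, was below Mif-2-/- Apoe-/- replicates 1 and 4. Sult2a3 had counts in 3 Apoe-/- libraries and in 0 Mif-2-/- Apoe-/- libraries. Sult2a4 was the exception, at 5.68 CPM in Mif-2-/- Apoe-/- replicate 2 and below 1 CPM in all other libraries. When the counts of the 7 genes were summed before the fit, which leaves aside how reads were divided among them, Sult2a was at 107 ± 43.3 CPM in Apoe-/- and 23.1 ± 11.5 CPM in Mif-2-/- Apoe-/- livers. Each Mif-2-/- Apoe-/- library was below each Apoe-/- library on this sum too (log2 fold change -2.22, SE 0.48; edgeR adjusted p = 0.102).

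Sult1a1, the main phenol sulfotransferase, ran the other way. It was at 108, 159, 167, 313 and 119 CPM in Apoe-/- and at 340, 306, 378 and 357 CPM in Mif-2-/- Apoe-/- livers. The Mif-2-/- Apoe-/- livers lay close together and above 4 of the 5 Apoe-/- livers, while Apoe-/- replicate 4 was level with them. The log2 fold change was 0.99 (SE 0.33; edgeR adjusted p = 0.184, DESeq2 adjusted p = 0.0631), and Sult1a1 was the 1 member with a higher level at an unadjusted p under 0.05. Without Apoe-/- replicate 4, it was higher in each Mif-2-/- Apoe-/- library, the log2 fold change being 1.25 (edgeR adjusted p = 0.222).

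**Figure D2:**
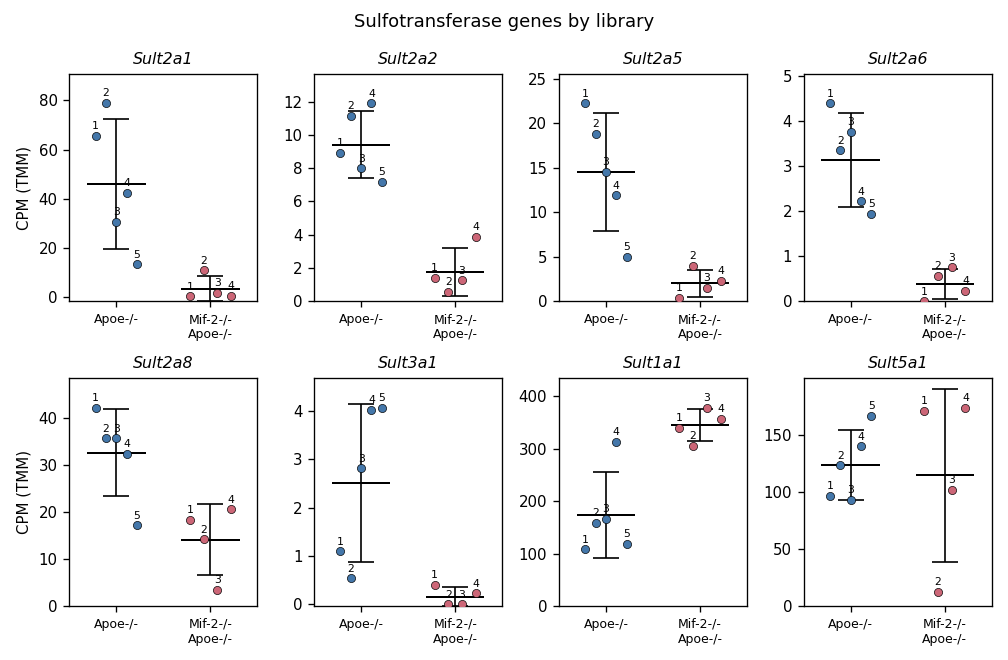
TMM-normalized CPM (y axis, linear, a scale of its own for each gene) of 8 sulfotransferase genes in the 5 Apoe-/- and 4 Mif-2-/- Apoe-/- libraries; each point is a library with its replicate number, and the bars show the mean ± SD. Sult2a1, Sult2a2, Sult2a5, Sult2a6 and Sult3a1 are lower in all 4 Mif-2-/- Apoe-/- libraries, and Sult1a1 is at 306 CPM or above in them.

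Sult3a1, an amine sulfotransferase encoded apart from the others on chromosome 10, was at 1.10, 0.536, 2.82, 4.03 and 4.07 CPM in Apoe-/- livers and at 0.407, 0, 0 and 0.229 CPM in Mif-2-/- Apoe-/- livers. The genotypes did not overlap, but the highest Mif-2-/- Apoe-/- value was near the lowest Apoe-/- one. Sult3a1 entered the test through its Apoe-/- counts alone, so its values are a description only. With 3 counts or fewer in each Mif-2-/- Apoe-/- library, it was at least 2.67-fold higher in Apoe-/- livers (edgeR adjusted p = 0.225, DESeq2 adjusted p = 0.10). Sult5a1 was at 96.6, 123.2, 93.0, 140 and 166 CPM in Apoe-/- and at 171, 12.5, 102 and 173 CPM in Mif-2-/- Apoe-/- livers, so that the genotypes overlapped and Mif-2-/- Apoe-/- replicate 2 stood far below all others (log2 fold change -0.11, SE 0.52; edgeR adjusted p = 0.949).

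Per kilobase of exon, Sult1a1 had the highest level of its class in both genotypes, at 115 ± 54.4 CPM per kb in Apoe-/- and 229 ± 20.3 CPM per kb in Mif-2-/- Apoe-/- livers. In Apoe-/- livers Sult2a1 followed at 45.2 ± 26 CPM per kb and then Sult5a1 at 28.0 ± 6.94 CPM per kb, a pair whose spreads overlapped. In Mif-2-/- Apoe-/- livers Sult5a1 was at 25.9 ± 17.1 CPM per kb and Sult2a1 at 3.18 ± 4.97 CPM per kb. The summed level of the 16 sulfotransferases was 420 ± 89.2 CPM in Apoe-/- and 499 ± 89.5 CPM in Mif-2-/- Apoe-/- livers, where Sult1a1 made up the larger share. The other members, Sult1b1, Sult1c1, Sult1c2, Sult1d1, Sult2b1 and Sult4a1, were below 10 CPM on average in both genotypes and overlapped. Over the 15 tested sulfotransferases the median log2 fold change was -0.92, and -0.75 with the 3 genes at the floor set to their bounds. The 15 include Sult1b1, Sult2a3 and Sult3a1, which entered the test through Apoe-/- counts alone. The 7 with a mean of at least 5 CPM had a median of -1.20. Among them, Sult1c2, Sult2a1, Sult2a2 and Sult2a5 averaged below 5 CPM in Mif-2-/- Apoe-/- livers.

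Among the glucuronosyltransferases 2 genes had no overlap, and the abundant ones showed a more even shift. Of the 2, Ugt2b37 entered the test through its Apoe-/- counts alone and is given as a description only. Ugt3a2, of a branch that uses sugars other than glucuronic acid, was at 24.4, 24.7, 30.5, 92.7 and 23.8 CPM in Apoe-/- and at 2.64, 15.3, 3.02 and 6.40 CPM in Mif-2-/- Apoe-/- livers. Apoe-/- replicate 4 stood far above its group, and the other 4 lay close together and above all Mif-2-/- Apoe-/- livers. The log2 fold change was -2.56 (SE 0.70; edgeR adjusted p = 0.146, DESeq2 adjusted p = 0.00915), -2.01 without Apoe-/- replicate 4 (edgeR adjusted p = 0.281) and -3.38 without Mif-2-/- Apoe-/- replicate 2 (edgeR adjusted p = 0.0426). Its transcript shared no 100-base window with other genes, although its coding sequence was 93.3% identical to that of Ugt3a1. Ugt3a1 itself was at 3.82 ± 2.05 CPM against 2.51 ± 2.5 CPM.

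The Ugt2b enzymes glucuronidate steroid hormones, bile acids and drugs, and their 7 member genes lie within chr5:86889767-87424203 (GRCm38). Ugt2b37 was at 1.37, 2.55, 4.23, 12.7 and 6.97 CPM in Apoe-/- and at 1.02, 0, 0 and 0.457 CPM in Mif-2-/- Apoe-/- livers, with 0 counts in 2 of the latter and no overlap between the genotypes (log2 fold change -3.70, SE 1.32; edgeR adjusted p = 0.213, DESeq2 adjusted p = 0.0361). The well expressed Ugt2b5 was at 197, 235, 287, 295 and 107 CPM against 77.7, 202, 64.0 and 81.8 CPM (log2 fold change -1.08, SE 0.41; edgeR adjusted p = 0.233). Here Apoe-/- replicate 5 and Mif-2-/- Apoe-/- replicate 2 each lay nearer to the other genotype, and without the latter edgeR gave -1.68 and an adjusted p of 0.0491. Ugt2b36 was at 280, 257, 242, 388 and 132 CPM against 200, 206, 108 and 122 CPM, with the same Apoe-/- library the lowest of its group (log2 fold change -0.71, SE 0.35; edgeR adjusted p = 0.349).

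Ugt2a3, which conjugates bile acids, was at 107, 87.7, 83.1, 158 and 28.8 CPM in Apoe-/- and at 30.3, 103, 15.6 and 24.5 CPM in Mif-2-/- Apoe-/- livers, and the genotypes overlapped through the same pair of libraries (log2 fold change -1.12, SE 0.57; edgeR adjusted p = 0.364). Without Mif-2-/- Apoe-/- replicate 2 its log2 fold change was -2.09 (edgeR adjusted p = 0.0656). Ugt1a1, the bilirubin glucuronosyltransferase, was at 7.13, 6.17, 3.29, 1.81 and 20.9 CPM against 26.6, 14.8, 4.79 and 6.40 CPM, with overlap between the genotypes (log2 fold change 0.73, SE 0.84; edgeR adjusted p = 0.725). Ugt1 transcripts share their 3' exons, and 57.2% of the windows of Ugt1a1 and 100% of those of Ugt1a6a occurred in other Ugt1a genes, so that the division of reads among them is uncertain. Ugt2b1, which shared no window, was at 12.4 ± 1.77 CPM against 15.4 ± 8.84 CPM (log2 fold change 0.32, SE 0.60; edgeR adjusted p = 0.845).

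Per kilobase, Ugt2b36 at 126 ± 44.4 CPM per kb and Ugt2b5 at 121 ± 41.4 CPM per kb had the highest levels of the class in Apoe-/- livers and were not separated by their spreads. Ugt2a3 followed at 43.9 ± 21.9 CPM per kb and Ugt3a2 at 12.7 ± 9.68 CPM per kb. In Mif-2-/- Apoe-/- livers the order was the same down to Ugt2a3, at 77.2 ± 24.7, 57.2 ± 34.5 and 20.5 ± 19.0 CPM per kb, whereas Ugt3a2 at 2.21 ± 1.90 CPM per kb came after Ugt2b1, Ugt1a1 and Ugt2b34. Of the 8 glucuronosyltransferases with a mean of at least 5 CPM, 6 had a negative fitted value, and their median log2 fold change was -0.90. At an edgeR unadjusted p under 0.05, 2 were lower (25%, against 8.83% of genes at that level). Among the 8, Ugt2b35 averaged below 5 CPM in Mif-2-/- Apoe-/- livers. The median of all 14 was -0.90, and -0.65 with Ugt2b38 set to its bound. The 14 include Ugt1a6a, Ugt1a9, Ugt2b37 and Ugt2b38, which entered the test through Apoe-/- counts alone.

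**Figure D3:**
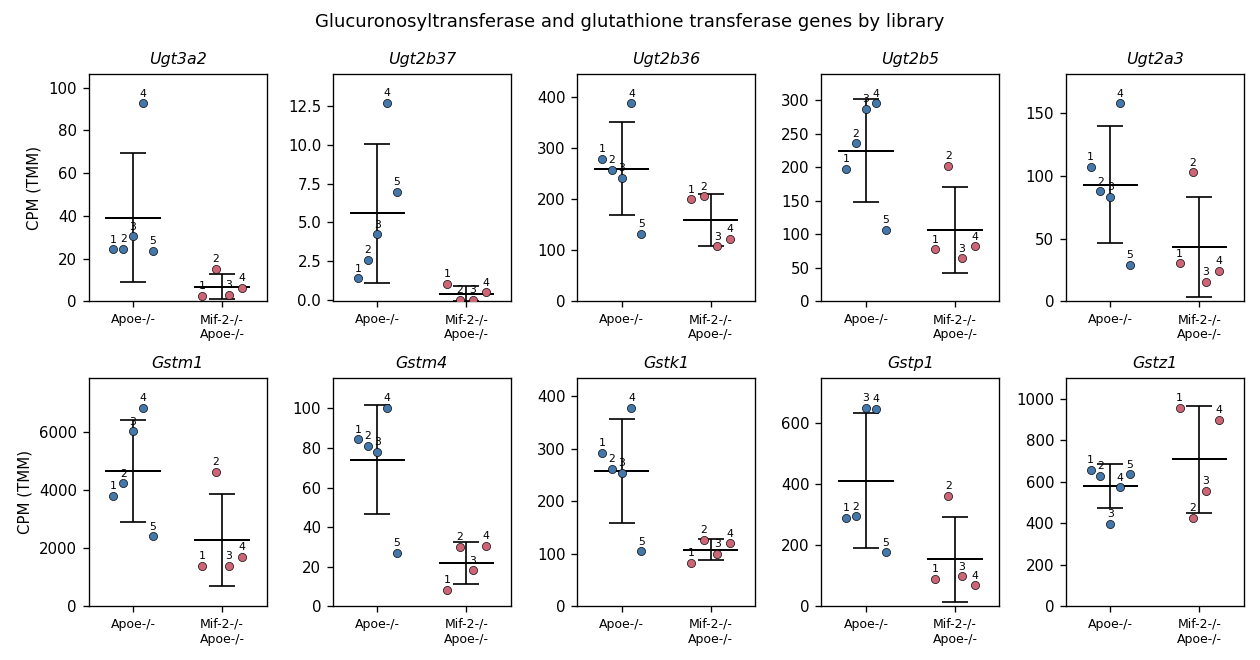
TMM-normalized CPM (y axis, linear, a scale of its own for each gene) of 5 glucuronosyltransferase genes (top) and 5 glutathione transferase genes (bottom) by library, with replicate numbers and the mean ± SD. Ugt3a2 and Ugt2b37 are lower in all 4 Mif-2-/- Apoe-/- libraries, while for Ugt2b5, Ugt2a3, Gstm1 and Gstp1 Mif-2-/- Apoe-/- replicate 2 lies above Apoe-/- replicate 5.

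Glutathione transferases had the highest summed CPM of the 3 classes, and theirs was the class in which most genes leaned the same way, but in none of the 18 were the genotypes separate. Of these, 16 had a negative fitted value, with a median log2 fold change of -1.09 against 0.17 for all genes. At an edgeR unadjusted p under 0.05, 9 were lower (50%, against 6.52% of all genes). The mu class, detoxifying enzymes encoded by 7 adjacent member genes on chromosome 3 (chr3:107895821-108044894, GRCm38), was negative in 7 of 7 genes, the alpha class in 4 of 4 and the pi class in 3 of 3. Related genes are not separate observations, as 81.8% of the windows of Gsta1 and 63.5% of those of Gstp2 occurred in other genes. The counts by class are given as a description only. Gstm1, the main mu enzyme of mouse liver, had the highest level per kilobase of all members, at 3163 ± 1201 CPM per kb in Apoe-/- and 1549 ± 1072 CPM per kb in Mif-2-/- Apoe-/- livers.

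Gstm1 was at 3803, 4234, 6022, 6825 and 2413 CPM in Apoe-/- livers and at 1397, 4640, 1390 and 1699 CPM in Mif-2-/- Apoe-/- livers. Mif-2-/- Apoe-/- replicate 2 was as high as the Apoe-/- livers, and the other 3 were below all of them. The log2 fold change was -1.03 (SE 0.44; edgeR adjusted p = 0.280) and became -1.73 with an edgeR adjusted p of 0.0496 without Mif-2-/- Apoe-/- replicate 2. Gstm4 was at 84.4, 81.2, 77.9, 100 and 26.9 CPM against 8.34, 30.1, 18.1 and 30.4 CPM, and here Apoe-/- replicate 5 alone joined the other genotype (log2 fold change -1.78, SE 0.49; edgeR adjusted p = 0.147, DESeq2 adjusted p = 0.0181). Of the windows of Gstm1, 9.05% occurred in other genes, and 0 of those of Gstm4 did so.

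Gstk1, the kappa enzyme of mitochondria and peroxisomes, was at 292, 262, 254, 378 and 105 CPM in Apoe-/- and at 83.2, 127, 100 and 120 CPM in Mif-2-/- Apoe-/- livers. The Mif-2-/- Apoe-/- livers differed little among themselves and were all below Apoe-/- replicates 1 to 4, while Apoe-/- replicate 5 lay among them. Its log2 fold change was -1.27 (SE 0.36; edgeR adjusted p = 0.154, DESeq2 adjusted p = 0.0236), and without Apoe-/- replicate 5 it was the 1 member called by edgeR, at -1.46 and an adjusted p of 0.0365. Gstp1, the main pi enzyme, was at 289, 294, 648, 646 and 176 CPM against 89.1, 362, 97.8 and 68.6 CPM (log2 fold change -1.42, SE 0.53; edgeR adjusted p = 0.233). Without Mif-2-/- Apoe-/- replicate 2, the 1 library of its genotype above Apoe-/- replicate 5, edgeR gave -2.36 and an adjusted p of 0.0360. Its coding sequence was 98.1% identical to that of Gstp2, and 52.8% of its windows occurred in other genes, so that its reads cannot be assigned with certainty.

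Other glutathione transferases overlapped widely. Gstz1, which acts in tyrosine breakdown, was at 657, 627, 397, 572 and 636 CPM in Apoe-/- and at 954, 427, 556 and 897 CPM in Mif-2-/- Apoe-/- livers. The genotypes overlapped, with Mif-2-/- Apoe-/- replicates 1 and 4 above all Apoe-/- libraries (log2 fold change 0.29, SE 0.31; edgeR adjusted p = 0.700). Gstp3 was at 106 ± 27.2 CPM against 88.3 ± 46.3 CPM (log2 fold change -0.26, SE 0.39; edgeR adjusted p = 0.799). In Apoe-/- livers Gstp1 at 265 ± 143 CPM per kb, Gstk1 at 176 ± 67.3 CPM per kb, Gstp3 at 117 ± 29.9 CPM per kb and Gstz1 at 114 ± 20.8 CPM per kb came next after Gstm1, and neighbours among these 4 overlapped in their spreads.

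Several members, most of all glutathione transferases, were lowest of their genotype in Apoe-/- replicate 5 and highest of their genotype in Mif-2-/- Apoe-/- replicate 2. The summed level of the glutathione transferases was 6040, 6479, 8651, 10243 and 3967 CPM in Apoe-/- and 3238, 6593, 2605 and 3410 CPM in Mif-2-/- Apoe-/- livers. The summed hepatocyte markers were at 145595, 151345, 162141, 202823 and 67505 CPM and at 91409, 201346, 68151 and 100006 CPM in the same order. Both sums were low in Apoe-/- replicate 5 and high in Mif-2-/- Apoe-/- replicate 2 for their genotype. Between 89.0% and 94.4% of the marker sum came from the 3 markers among the 10 most abundant genes. The other 7 hepatocyte markers summed to 11017, 12331, 9794, 11633 and 6411 CPM and to 9358, 11229, 6997 and 10955 CPM, again lowest in Apoe-/- replicate 5 and highest in Mif-2-/- Apoe-/- replicate 2, but with a narrower range. Single markers differed in order, Tat being highest of its genotype in Mif-2-/- Apoe-/- replicate 1 (1183 CPM), Cps1 in replicate 3 (189 CPM) and Hpd in replicate 4 (7979 CPM). Apoe-/- replicate 5 was the lowest of its group in 11 of 18 glutathione transferases, 6 of 14 glucuronosyltransferases and 6 of 15 sulfotransferases, and in 22.1% of all genes. Mif-2-/- Apoe-/- replicate 2 was the highest of its group in 13, 5 and 5 of them, and in 24.3% of all genes.

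**Figure D4:**
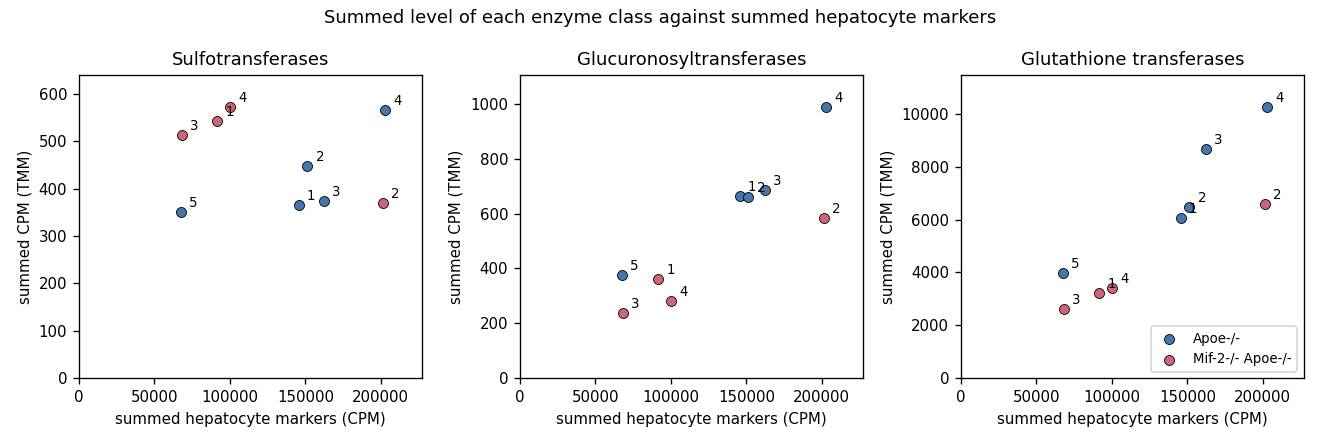
Summed TMM-normalized CPM of each class (y axis) against the summed CPM of 10 hepatocyte markers (x axis, in CPM) for the 9 libraries, which carry their replicate numbers. Glutathione transferases and glucuronosyltransferases are high where this sum, carried mainly by 3 of the 10 most abundant genes, is high, in Apoe-/- replicates 1 to 4 and Mif-2-/- Apoe-/- replicate 2, and the summed sulfotransferases, 350 to 572 CPM, do not follow them.

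The comparison was also read within libraries of like make-up, split at a share of 20% for the 10 most abundant genes. This split was not planned beforehand. Among the libraries with a low share, 1 Apoe-/- library was set against 3 Mif-2-/- Apoe-/- libraries, and 20 of 47 members were lower and 3 higher in all 3 (26.7% and 22.6% of all genes). Among those with a high share, 4 Apoe-/- libraries were set against 1 Mif-2-/- Apoe-/- library, in which 15 members were lower and 5 higher than in all 4 (21.2% and 24.9% of all genes). Each comparison rested on a single library of one genotype and allowed no test. With the share as a covariate (an analysis added after the data had been seen), edgeR called 0 members. Sult2a1 then had a log2 fold change of -3.96 (edgeR adjusted p = 0.0559), Ugt3a2 -2.20, Gstm1 -0.68 and Gstk1 -0.94. The median of the glutathione transferases was -0.76, that of the glucuronosyltransferases -0.74 and that of the sulfotransferases -1.06, against 0.01 for all genes. The share was high in 4 Apoe-/- libraries and 1 Mif-2-/- Apoe-/- library, and low in 1 and 3. Share and genotype thus cannot be told apart here, and the part of library make-up in these differences was not tested.

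**Figure D5:**
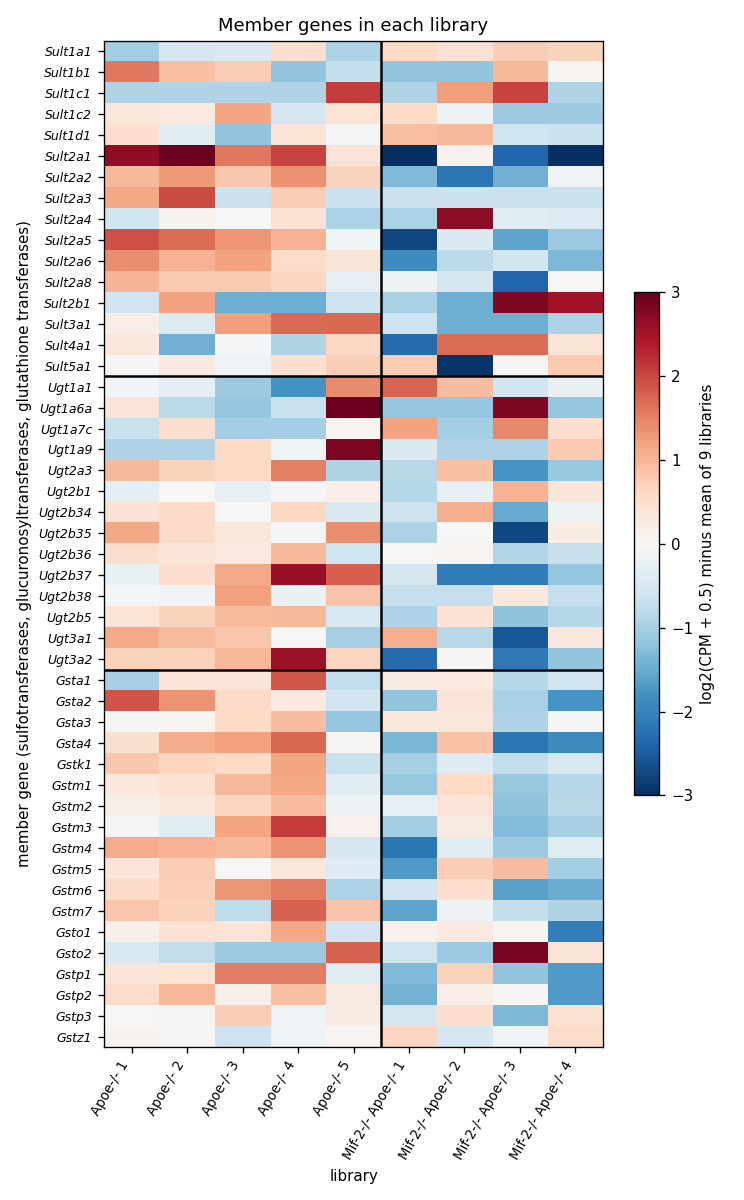
log2(CPM + 0.5) of the 48 members (rows, by class) in the 9 libraries (columns), each minus the mean of the gene over the 9 libraries; red is above and blue below that mean, and colours saturate at 3. The Sult2a rows and Ugt3a2 are mostly red in Apoe-/- and blue in Mif-2-/- Apoe-/- libraries, while many glutathione transferase rows are pale or red in Mif-2-/- Apoe-/- replicate 2 and blue in Apoe-/- replicate 5.

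Genes that supply the donors and act around these enzymes showed differences in both directions, and edgeR called 0 in each of the 8 lists examined. Of the 9 genes of PAPS supply, Papss2, which makes PAPS, was at 33.9 ± 9.56 CPM in Apoe-/- and 82.3 ± 28.5 CPM in Mif-2-/- Apoe-/- livers, without overlap (log2 fold change 1.28, SE 0.37; edgeR adjusted p = 0.156, DESeq2 adjusted p = 0.0105). Bpnt1, which breaks down the PAP left after sulfation, was at 19.3 ± 4.19 CPM against 5.31 ± 4.75 CPM, also without overlap (edgeR adjusted p = 0.288). Of the 6 genes around UDP-glucuronic acid, Gys2, the hepatic glycogen synthase that draws on the same UDP-glucose, was at 97.7 ± 30.3 CPM against 246 ± 68.6 CPM, higher in all Mif-2-/- Apoe-/- libraries (edgeR adjusted p = 0.128, DESeq2 adjusted p = 0.00255). Ugdh, Ugp2 and the other genes of this list overlapped.

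Of the 13 genes of glutathione supply, 9 had a negative fitted value. At an edgeR unadjusted p under 0.05, 3 were lower and 0 higher (6.52% and 8.99% of all genes). Gclc, the catalytic subunit of the first step of glutathione synthesis, was at 115 ± 20.2 CPM against 56.2 ± 25.4 CPM, without overlap (edgeR adjusted p = 0.206). Of 18 other conjugating enzymes tested, 14 had a negative value. DESeq2 called 3 of them lower (Gstt3, Mgst1 and Ephx1) and 0 higher, against 2.52% and 2.75% of all genes. The theta class gene Gstt3, which the rule for members left out, was at 75.3 ± 25.5 CPM against 27.9 ± 10.2 CPM, without overlap (edgeR adjusted p = 0.156). Among 12 receptors and partners, 8 had a positive fitted value. At an edgeR unadjusted p under 0.05, 3 were higher and 0 lower (8.99% and 6.52% of all genes). Por, the electron donor of the cytochromes P450, was at 451 ± 160 CPM against 837 ± 140 CPM, higher in all Mif-2-/- Apoe-/- libraries (edgeR adjusted p = 0.218). In the lists for mercapturate formation (12 genes), conjugate hydrolysis (3 genes) and conjugate export (5 genes) all genotypes overlapped. Of the 5 export genes, 4 had a positive fitted value, and 2 were higher and 0 lower at an edgeR unadjusted p under 0.05 (8.99% and 6.52% of all genes). In the mercapturate list 7 fitted values were negative and 5 positive.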

How the data were processed

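The authors prepared Smart-seq2 libraries from pooled lysates of frozen liver sections, used cutadapt for trimming and HISAT2 for alignment to the mouse genome (mm10 per the submitters' processing notes), and counted reads on exons. The deposited table holds raw, whole-number counts for each Entrez gene identifier, and whether strand was used is not given in the sources used here. Library totals lay between 2318148 and 10764182 counts. Where all libraries of a genotype had 3 counts or fewer, the level was taken to be at the floor; this covers counting error only, since PCR copies were not marked.

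The groups are the genotypes of the labels (5 Apoe-/-, 4 Mif-2-/- Apoe-/-), and p-values measure the spread between these libraries. The study states 4 mice per group, and no library was removed here. After the 10 genes of highest mean CPM and those counted in fewer than 3 libraries of each genotype had been set aside, steps that the study states for its lysate libraries, 16860 genes entered edgeR 4.0.16 under R 4.3.3, with TMM normalization, the quasi-likelihood test and p-values adjusted by Benjamini-Hochberg (threshold 0.05). Standard errors were derived from F and the log2 fold change. DESeq2 1.42.0 gave no adjusted p to 9102 genes. Levels per kilobase used merged exon lengths and coordinates of GENCODE M21 (GRCm38, the assembly of mm10).

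Members and gene lists were chosen with earlier results of these data known. Named members were those called by edgeR, those without overlap at a mean of at least 1 CPM, the 5 highest of each class per kilobase, and, at a mean of at least 5 CPM, the largest fitted change of each class in each direction; 20 qualified. Pathway genes were named where the genotypes did not overlap. Others that the text names (Sult2a3, Sult2a4, Sult2a8, Ugt3a1, Ugt1a6a, Ugt2b38, Mgst1, Ephx1, Nr1i3, the single cell type markers and relatives used for comparison) were chosen after their values were seen. RefSeq held promoter windows for 43 of the 48 members. Alternatives were RLE or TMMwsp size factors, no filter or filterByExpr, the 10 genes kept, DESeq2, a replicate block, subfamily sums, an adjusted p under 0.1, and each library left out in turn. Coding identity was that of the longest open reading frames (biopython 1.88).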

Additional observations from a re-analysis of the deposited data

Results flagged for a closer look

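In 4 of 46 groups of member values examined, 1 library stood apart from the rest of its genotype by more than Dixon's limit, where chance alone gives about 1 in 20. Ugt3a2 was at 92.7 CPM in Apoe-/- replicate 4, the other Apoe-/- libraries being between 23.8 and 30.5 CPM. Gstm4 was at 26.9 CPM in Apoe-/- replicate 5, against 77.9 to 100 CPM in the others. Gstz1 was at 397 CPM in Apoe-/- replicate 3, against 572 to 657 CPM. Gstm1 was at 4640 CPM in Mif-2-/- Apoe-/- replicate 2, against 1390 to 1699 CPM in the others of that genotype.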

How the results depend on the processing

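The number of members called lower was 0 with edgeR, 8 with DESeq2 and 9 with the replicate block, and 0 to 6 with each library left out in turn; the number called higher was 0 in each of these, and 0 to 0 with libraries left out. The 6 calls came without Mif-2-/- Apoe-/- replicate 2 (Sult2a1, Ugt3a2, Ugt2b5, Gstm1, Gstp1 and Gsta4), and 1, Gstk1, came without Apoe-/- replicate 5. Calls over all genes rose in the same settings. Genes called lower were 10 of 16860 in the main fit, 353 of 14030 with DESeq2 and 329 of 16860 with the replicate block. They were 201 of 16335 without Mif-2-/- Apoe-/- replicate 2 and 74 of 16215 without Apoe-/- replicate 5. The number of members lower in each Mif-2-/- Apoe-/- library was 7 to 15 with libraries left out (15 without Mif-2-/- Apoe-/- replicate 2, 12 without Apoe-/- replicate 5), and the number higher was 0 to 1. The share of all genes without overlap was not taken with libraries left out, so these numbers are a description only. The median log2 fold change of the sulfotransferases was -1.25 with filterByExpr, which tested 9 of them, -1.26 with the replicate block, and between -1.28 and -0.61 with libraries left out. The medians of the glucuronosyltransferases and glutathione transferases lay between -1.38 and -0.81 and between -1.51 and -0.90. The cause of these shifts was not tested. Among the 20 named members, signs turned only with libraries left out, in Sult5a1 (-0.37 to 0.18), Ugt2b1 (-0.11 to 0.57) and Gstp3 (-0.58 to 0.0022), none of which was called. The median of all genes was 0.17 with TMM and -0.0015 with TMMwsp, and these 20 members kept their direction and stayed uncalled under TMMwsp and RLE, without a filter, with the 10 genes kept and with the share of these genes as a covariate, which was added after the data had been seen. With filterByExpr 18 of them were tested, and these did likewise. At an adjusted p under 0.1, and with counts summed by subfamily, 0 were called. Same-numbered libraries did not deviate together (correlations from -0.01 to 0.12) and so share only a number, and the calls under the replicate block are not read further. Libraries varied with a common BCV (coefficient of variation beyond counting) of 0.91, and 4 members (Sult2a3, Sult2a6, Sult3a1 and Ugt2b38) had 3 counts or fewer in each Mif-2-/- Apoe-/- library, so that for Sult2a3 and Ugt2b38 no fold was detectable at this depth.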

Other observations

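Ddt, the deleted gene, lies on chromosome 10 between Cabin1 and the theta class glutathione transferases, which the rule for members left out. The well counted neighbours within 100 kb were chosen after their values had been seen. Gstt3, the gene next to Ddt (chr10:75774115-75781414 against chr10:75771230-75773414, GRCm38), was at 83.3, 51.2, 108, 86.5 and 47.6 CPM in Apoe-/- and at 32.3, 38.0, 14.1 and 27.2 CPM in Mif-2-/- Apoe-/- livers, and the genotypes did not overlap. Gstt1, the next gene, was at 866 ± 304 CPM (SD over the 5 Apoe-/- libraries) against 573 ± 258 CPM (SD over the 4 Mif-2-/- Apoe-/- libraries) and overlapped (edgeR adjusted p = 0.493). Gstt2, further on, was at 369 ± 111 CPM against 679 ± 175 CPM (log2 fold change 0.88; edgeR adjusted p = 0.216), and Cabin1, on the other side of Ddt, was at 87.8 ± 29.9 CPM against 215 ± 78.5 CPM (log2 fold change 1.29; edgeR adjusted p = 0.154, DESeq2 adjusted p = 0.0192). Mif, the homologue of Mif-2, was at 709 ± 255 CPM against 322 ± 232 CPM, with Mif-2-/- Apoe-/- replicate 2 at 668 CPM and overlap between the genotypes (log2 fold change -1.14; edgeR adjusted p = 0.242). The neighbours of Ddt thus differed in both directions, and edgeR called none of these 5 genes (unadjusted p under 0.05 in 4 of them, and 2, Gstt3 and Cabin1, called by DESeq2). Of all genes, 6.52% were lower and 8.99% higher at an edgeR unadjusted p under 0.05. DESeq2 called 2.52% of all genes lower and 2.75% higher. As these 5 genes were chosen after their values had been seen, their counts are a description only.

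Among the receptors that sense foreign compounds, Nr1i3 (CAR) was at 314, 388, 231, 382 and 578 CPM in Apoe-/- and at 1881, 354, 1162 and 1465 CPM in Mif-2-/- Apoe-/- livers. It was higher in 3 of the 4 Mif-2-/- Apoe-/- libraries than in any Apoe-/- library, and replicate 2 lay within the Apoe-/- range (log2 fold change 1.68, SE 0.42; edgeR adjusted p = 0.136, DESeq2 adjusted p = 0.00798). Nr1i3 was chosen after its values had been seen, as the 1 gene of the 12 in its list called by DESeq2, which called 2.75% of all genes higher. The fitted values of Nr1i2, Ahr, Nfe2l2 and Ppara were positive and that of Rxra negative, and all of these overlapped. Mgst1, a microsomal glutathione transferase, was at 2849 ± 1469 CPM against 757 ± 685 CPM, and Ephx1, the microsomal epoxide hydrolase, at 666 ± 231 CPM against 254 ± 135 CPM. Both were lowest among Apoe-/- livers in replicate 5 and highest among Mif-2-/- Apoe-/- livers in replicate 2.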
